A study of Mus musculus with 4 samples.

Results

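The collagen gene family was followed in mouse subcutaneous adipose tissue across a deletion of Napepld in fat cells and a high-fat diet. Napepld encodes the enzyme that makes N-acylethanolamines, a family of signalling lipids that includes anandamide. The members were all genes with a symbol of the form Col, a number, the letter a and a number, on probe sets that name only 1 gene, and this rule found 44 of the 19938 named genes measured. They comprised 11 fibrillar collagens, 6 basement membrane collagens (all of type IV) and 27 other collagens. All mice were C57Bl6, were 16 weeks old and carried the floxed allele on both chromosomes (NAPE PLD lox/lox). The cKO mice also carried AP2 Cre, in which the Fabp4 promoter drives the recombinase in adipocytes, so that other cells of the tissue keep the gene, and the WT mice had no Cre. Each genotype was given the high-fat diet D12492 (HFD) or the control diet AIN93M (CT). This gave 4 groups, cKO-HFD, WT-HFD, cKO-CT and WT-CT. For each group, RNA of 4 to 5 mice chosen for RNA quality was pooled and run on 1 Affymetrix MoGene 1.0 ST array. The range of mice is that of the labels, and the methods of the study name only its upper number.

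With 1 array a group, no difference has an error or a test, and no p-value is given. A difference is called here when it reached 1.5-fold, which is 0.585 on the log2 scale, and this is a size and not a statement of significance. Values are log2 levels, and a log2 ratio is the difference of the log2 levels of 2 arrays. The levels of different genes are not compared, since probes differ in brightness. Each array enters 2 of the 4 comparisons (the genotypes on each diet and the diets in each genotype), so the comparisons are not independent of each other. In RNA of whole tissue, fewer cells of a type and less RNA per cell cannot be told apart.

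Collagens are trimers of chains wound into a triple helix, and they form most of the scaffold between the cells of a tissue. Fibrillar collagens make the fibres that bear tension, with type I as the bulk and types III and V mixed into the same fibrils. Type IV collagen makes the sheet of the basement membrane, which surrounds each adipocyte and lies under the endothelium of blood vessels. Type VI collagen makes beaded filaments next to the basement membrane and is abundant in fat. Further members sit on the surface of fibrils (the FACIT group), carry side chains of glycosaminoglycan at basement membranes (the multiplexins, types XV and XVIII) or span the plasma membrane. In adipose tissue, fibroblasts and progenitor cells make much of the fibrillar collagen, and adipocytes and endothelial cells also make basement membrane.

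Napepld had levels of 7.94 in cKO-HFD and 8.01 in WT-HFD, and of 7.78 in cKO-CT and 8.31 in WT-CT. It was lower in cKO on both diets, with log2 ratios of −0.064 on HFD and −0.53 on CT, and neither reached 1.5-fold. The arrays correlated with each other at r = 0.980 to 0.989 over the 19938 genes, a description only, since genes of an array are not replicates of it. The level that 95% of 1027 olfactory receptor genes did not exceed was used as a background. It was 5.50 in cKO-HFD, 5.42 in WT-HFD, 5.28 in cKO-CT and 5.39 in WT-CT. All 13 adipocyte markers measured were above it on every array. Of the 44 collagens, 39 were above it on all 4 arrays, Col24a1 and Col6a4 on some of them, and Col4a6, Col6a5 and Col19a1 on none. On at least 1 array, 41 of the 44 collagens were above it, where 12486 of the 19938 genes were. The arrays also differed in RNA of other tissues. The median level of 15 skeletal muscle markers was 7.52 in cKO-HFD, 11.68 in WT-HFD, 9.98 in cKO-CT and 9.79 in WT-CT, and that of 12 pancreatic acinar markers was 5.29, 5.22, 4.96 and 6.83 in the same order.

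The stretches before the start sites are printed for 3 of the members that passed 1.5-fold in WT-HFD relative to WT-CT. Col1a2 encodes a chain of type I collagen, Col3a1 the only chain of type III collagen and Col6a3 the long chain of type VI collagen. Each stretch is the 250 bases before the RefSeq start site in GRCm38.p6, written 5′ to 3′ on the strand of its gene. Capitals mark a match on either strand to CCAAT (the CCAAT box), to TATAAA (the TATA box) or to GGGCGG (the GC box), and the matches do not overlap. Col1a2 lies at chr6:4505368-4505617 on the plus strand, Col3a1 at chr1:45311288-45311537 on the plus strand and Col6a3 at chr1:90843972-90844221 on the minus strand.
Col1a2: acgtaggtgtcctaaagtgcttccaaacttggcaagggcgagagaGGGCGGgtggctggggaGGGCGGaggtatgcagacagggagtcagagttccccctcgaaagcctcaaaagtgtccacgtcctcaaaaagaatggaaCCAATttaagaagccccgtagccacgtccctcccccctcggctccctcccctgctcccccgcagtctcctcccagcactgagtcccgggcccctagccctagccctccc
Col3a1: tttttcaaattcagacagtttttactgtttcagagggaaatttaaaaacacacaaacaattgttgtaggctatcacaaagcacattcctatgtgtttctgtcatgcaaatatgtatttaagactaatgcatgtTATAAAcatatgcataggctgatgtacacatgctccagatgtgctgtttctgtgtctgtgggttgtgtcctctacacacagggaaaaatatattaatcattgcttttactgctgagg
Col6a3: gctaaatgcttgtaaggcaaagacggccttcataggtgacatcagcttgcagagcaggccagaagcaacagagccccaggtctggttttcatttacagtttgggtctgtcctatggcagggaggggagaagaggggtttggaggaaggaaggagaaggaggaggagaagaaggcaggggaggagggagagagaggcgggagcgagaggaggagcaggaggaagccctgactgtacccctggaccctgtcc
The stretch of Col1a2 was 62.0% GC, with GGGCGG at 205 and 188 bases and CCAAT at 109 bases before the start site. The stretch of Col3a1 was 35.2% GC, with TATAAA at 117 bases before the start site, and that of Col6a3 was 57.2% GC with no match to the 3 motifs. Of the 44 collagens, 35 had a RefSeq window of 300 bases, and they had 38 windows in all. GGGCGG was in 23 of the 38 (60.5%), against 35.7% of the 32851 windows of all genes. CCAAT was in 13 (34.2%, against 37.4%) and TATAAA in 5 (13.2%, against 13.6%). A match is a description of letters in a window, not of a bound site.

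The high-fat diet in WT mice was the comparison with the most collagens past 1.5-fold. In WT-HFD relative to WT-CT, 7 of 44 were higher and 0 were lower, where 3.16% of all genes were higher and 2.67% were lower. They were 3 chains of type VI (Col6a3, Col6a2 and Col6a1), 2 FACIT members (Col14a1 and Col12a1) and 2 fibrillar chains (Col3a1 and Col1a2). In cKO-HFD relative to cKO-CT, 1 of 44 was higher (Col13a1) and 0 were lower, where 1.82% of all genes were higher and 2.17% were lower. In cKO-HFD relative to WT-HFD, 0 were higher and 1 was lower (Col14a1), where 1.04% of all genes were higher and 2.11% were lower. In cKO-CT relative to WT-CT, 0 were higher and 1 was lower (Col13a1), where 1.64% of all genes were higher and 1.52% were lower. In these 3 comparisons the count of collagens was of the size that the share of all genes would give. No collagen reached 2-fold in any comparison.

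A mean level of at least 7 over the 4 arrays was reached by 13 collagens and by 5362 genes in all. Among these, 6 of 13 collagens were higher and 0 lower in WT-HFD relative to WT-CT, where 5.97% of all such genes were higher and 5.02% were lower. In cKO-HFD relative to cKO-CT, 0 of 13 passed, where 0.97% were higher and 4.07% were lower. In cKO-HFD relative to WT-HFD, 0 were higher and 1 was lower, where 0.895% were higher and 3.17% were lower. In cKO-CT relative to WT-CT, 0 of 13 passed, where 3.51% were higher and 0.783% were lower.

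Type I collagen was lowest on the WT-CT array for both chains. Col1a1 had levels of 9.84 in cKO-HFD, 9.95 in WT-HFD, 9.85 in cKO-CT and 9.41 in WT-CT. The first 3 of these arrays lay within 0.10 of each other. Col1a2 had levels of 9.54 in cKO-HFD, 9.84 in WT-HFD, 9.52 in cKO-CT and 9.21 in WT-CT. Its highest array was WT-HFD, and the cKO arrays of both diets were alike, with a log2 ratio of 0.02. WT-HFD was 1.54-fold above WT-CT for Col1a2 and 1.45-fold above it for Col1a1, and the value of Col1a2 fell short of 1.5-fold, at 0.58 on the log2 scale, when the arrays were normalised by cyclic loess. On HFD, cKO was below WT by log2 ratios of −0.30 for Col1a2 and −0.10 for Col1a1, while on CT it was above WT, by 0.31 and 0.44.

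Col3a1, whose product mixes with type I collagen in fibrils, had levels of 9.70 in cKO-HFD, 9.74 in WT-HFD, 9.33 in cKO-CT and 9.11 in WT-CT. Both HFD arrays were above both CT arrays, by 1.29-fold in cKO and 1.54-fold in WT. Type V collagen, which starts fibrils and limits their width, was flatter. Col5a1 had levels of 7.52 in cKO-HFD, 7.48 in WT-HFD, 7.41 in cKO-CT and 7.44 in WT-CT. Its whole range was 0.11. Col5a2 had levels of 6.70 in cKO-HFD, 6.85 in WT-HFD, 6.74 in cKO-CT and 6.61 in WT-CT, a range of 0.24. The remaining 6 fibrillar genes (Col2a1, Col5a3, Col11a1, Col11a2, Col24a1 and Col27a1) had levels of 5.32 to 7.56. All 6 were lower in cKO-CT than in WT-CT, by log2 ratios of −0.30 to −0.004. All 6 were higher in cKO-HFD than in cKO-CT, by 0.12 to 0.40, and none passed 1.5-fold in either comparison. Both comparisons use the cKO-CT array. All of these members but Col5a3 had a mean level under 7. Of all 14576 genes at such levels, 8482 were lower in the first comparison and 8691 were higher in the second. Col2a1 and both type XI chains are known from cartilage. Of 7 other chondrocyte markers, 6 were never above the olfactory receptor background, where 12486 of all 19938 genes were above it on at least 1 array. The part of cartilage RNA in these values was not tested.

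The markers of stromal progenitors and fibroblasts, which make fibrillar collagen, also differed between the arrays. All 12 measured were above background on every array, and their median level was lowest in WT-CT (7.96) and highest in WT-HFD (8.53). Their median log2 ratio was −0.15 for the diet in cKO, 0.53 for the diet in WT, −0.30 for the genotype on HFD and 0.30 for the genotype on CT. The corresponding ratios of Col1a2 were 0.02, 0.62, −0.30 and 0.31, and those of Col3a1 were 0.36, 0.63, −0.04 and 0.22. Macrophage markers (14 genes) had medians of −0.13, 0.71, −0.33 and 0.50 in the same order. The part of either cell type in the collagen ratios was not tested. Skeletal muscle markers had medians of −2.14, 1.72, −3.95 and −0.07 in the same order, and pancreatic acinar markers 0.13, −1.63, −0.08 and −1.815. The 13 collagens with a mean level of at least 7 had medians of 0.26, 0.54, 0.02 and 0.29. The part of muscle or pancreatic RNA in the collagen ratios was not tested.

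**Figure D1:**
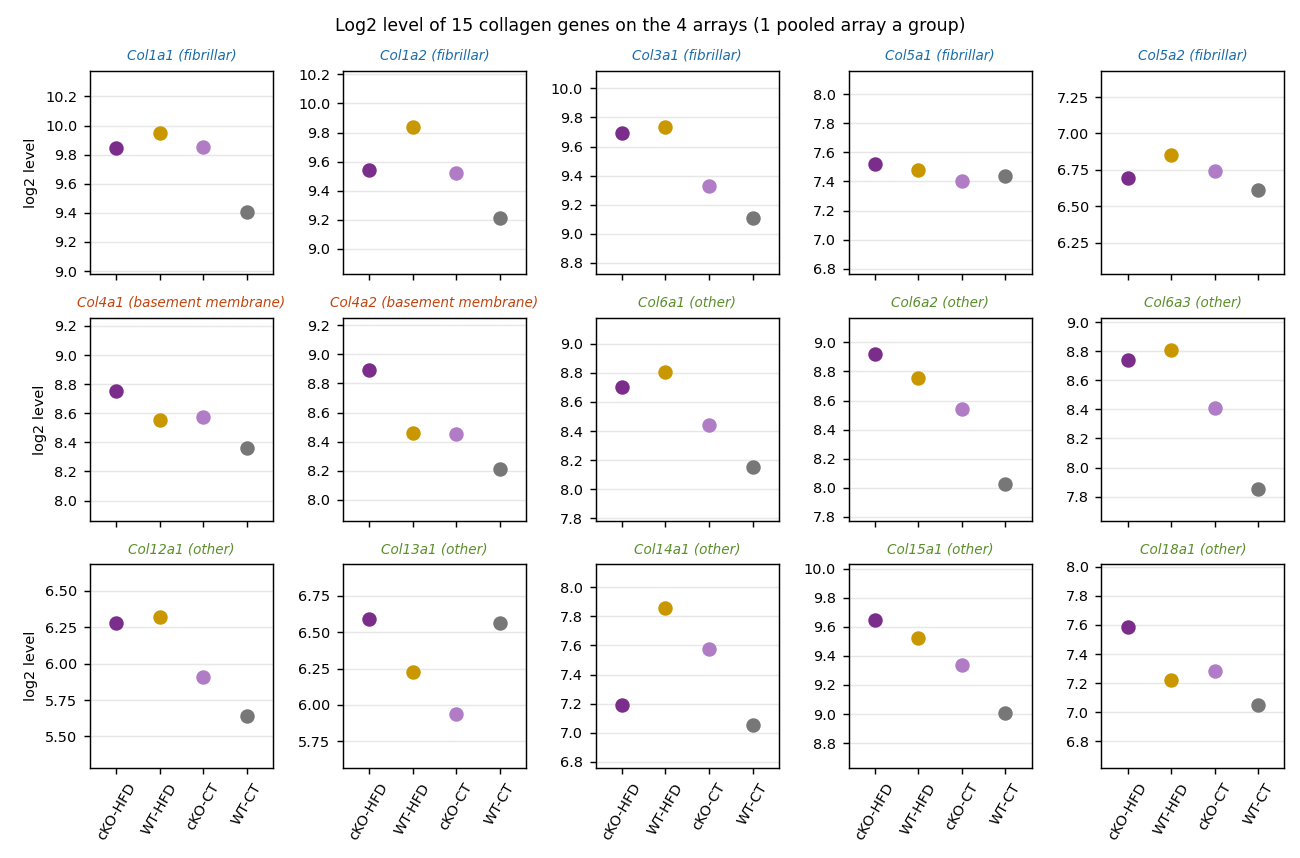
Log2 level (vertical axis, a window of the same height for each gene) of 15 collagen genes, 1 panel a gene and 1 point for each of the pooled arrays cKO-HFD, WT-HFD, cKO-CT and WT-CT. The type I, type IV and type VI chains shown have their lowest point on WT-CT, Col14a1 is highest on WT-HFD at 7.86, and Col5a1 is nearly flat, between 7.41 and 7.52.

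The type IV chains Col4a1 and Col4a2, which assemble into the trimer found in nearly all basement membranes, were highest on the cKO-HFD array. Col4a1 had levels of 8.76 in cKO-HFD, 8.56 in WT-HFD, 8.57 in cKO-CT and 8.36 in WT-CT. Col4a2 had levels of 8.89 in cKO-HFD, 8.46 in WT-HFD, 8.46 in cKO-CT and 8.21 in WT-CT. For both genes WT-CT was lowest, and WT-HFD and cKO-CT lay between, within 0.016 of each other. The log2 ratio of cKO-HFD over WT-HFD was 0.20 for Col4a1 and 0.43 for Col4a2, and neither gene reached 1.5-fold in any comparison. The genes lie head to head on chromosome 8, where their RefSeq start sites in GRCm38.p6 span 22 bases and their 300-base windows share 78 bases.

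Endothelial markers, of which all 12 were above background on every array, had median log2 ratios of 0.41 for the genotype on HFD, 0.21 for the diet in cKO, 0.25 for the diet in WT and 0.36 for the genotype on CT. The corresponding ratios were 0.20, 0.18, 0.20 and 0.21 for Col4a1 and 0.43, 0.44, 0.25 and 0.24 for Col4a2. The part of endothelial cells in the type IV values was not tested. The chains of tissue-restricted type IV trimers were at low levels. Col4a3, Col4a4 and Col4a5, known from kidney, lay between 5.43 and 6.34 and were lower in cKO-CT than in WT-CT, by log2 ratios of −0.32 to −0.20. They were higher in cKO-HFD than in cKO-CT, by 0.20 to 0.37. Of all 14576 genes with a mean level under 7, 8482 were lower in the first of these comparisons and 8691 were higher in the second. Col4a6 did not exceed the background.

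All 3 main chains of type VI collagen passed 1.5-fold for the diet in WT, and Col6a3 had the largest ratio of the family there. Col6a3 had levels of 8.74 in cKO-HFD, 8.81 in WT-HFD, 8.41 in cKO-CT and 7.85 in WT-CT. WT-CT stood below the other arrays, so that WT-HFD was 1.94-fold and cKO-CT 1.47-fold above it. Col6a2 had levels of 8.92 in cKO-HFD, 8.75 in WT-HFD, 8.54 in cKO-CT and 8.02 in WT-CT. Col6a1 had levels of 8.70 in cKO-HFD, 8.81 in WT-HFD, 8.44 in cKO-CT and 8.15 in WT-CT. For each of these chains both HFD arrays were above both CT arrays and WT-CT was lowest. The diet ratio in cKO was 0.33 for Col6a3, 0.37 for Col6a2 and 0.26 for Col6a1, below 1.5-fold in each case. In WT it was 0.96, 0.73 and 0.65. The genotype ratio was −0.07, 0.16 and −0.11 on HFD and 0.55, 0.52 and 0.29 on CT. Col6a4 and Col6a6, which encode alternative long chains, lay between 5.34 and 5.91 and had no log2 ratio beyond 0.13 in size, and Col6a5 did not exceed the background.

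The FACIT members, which decorate the surface of fibrils, held 2 of the members past 1.5-fold. Col12a1, found in dense tissue that bears load, had levels of 6.28 in cKO-HFD, 6.32 in WT-HFD, 5.91 in cKO-CT and 5.64 in WT-CT. Both HFD arrays were above both CT arrays, by 1.29-fold in cKO and 1.60-fold in WT. Col14a1, a product of fibroblasts, had levels of 7.19 in cKO-HFD, 7.86 in WT-HFD, 7.58 in cKO-CT and 7.06 in WT-CT. It was high on WT-HFD and cKO-CT and low on cKO-HFD and WT-CT. Its diet ratio was −0.38 in cKO and 0.80 in WT, and its genotype ratio was −0.67 on HFD and 0.52 on CT. Of the 12 stromal progenitor markers, 3 were lower in cKO-HFD than in WT-HFD past 1.5-fold, where 2.11% of all genes were. They were Pi16, Dpp4 and Clec3b with log2 ratios of −1.57, −1.39 and −0.64. Another 3 had ratios above 0, namely Pdgfrb, F3 and Icam1 at 0.39, 0.16 and 0.11, where 55.5% of all genes did. The part of stromal progenitors in the Col14a1 value was not tested. Col9a1, Col9a2, Col9a3, Col16a1, Col20a1 and Col22a1 lay between 5.81 and 7.03. All 6 were higher in cKO-HFD than in cKO-CT, by log2 ratios of 0.08 to 0.50. Of the 6, 5 were lower in cKO-CT than in WT-CT, Col20a1 being the exception. All 6 had a mean level under 7. Of all 14576 genes at such levels, 8691 were higher in the first comparison and 8482 were lower in the second, and both comparisons use the cKO-CT array. Col19a1 did not exceed the background.

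The multiplexins release fragments that can inhibit the growth of blood vessels. Col15a1 had levels of 9.65 in cKO-HFD, 9.52 in WT-HFD, 9.34 in cKO-CT and 9.01 in WT-CT. Col18a1 had levels of 7.58 in cKO-HFD, 7.22 in WT-HFD, 7.28 in cKO-CT and 7.05 in WT-CT. Both were highest on cKO-HFD and lowest on WT-CT, as were Col4a1 and Col4a2. The genotype ratio of Col18a1 was 0.36 on HFD and 0.23 on CT, that of Col15a1 was 0.13 and 0.33, and neither gene reached 1.5-fold in any comparison.

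Col13a1 encodes a transmembrane collagen of cell contacts. It had levels of 6.59 in cKO-HFD, 6.23 in WT-HFD, 5.94 in cKO-CT and 6.56 in WT-CT. It was low on cKO-CT and near equal on cKO-HFD and WT-CT, with a genotype ratio of 0.36 on HFD and −0.62 on CT and a diet ratio of 0.65 in cKO and −0.34 in WT. The other transmembrane members, Col17a1, Col23a1 and Col25a1, lay between 5.58 and 6.44 with no ratio past 1.5-fold. Col7a1, which makes the anchoring fibrils under epithelia, had a log2 ratio of 0.40 for the diet in cKO and −0.40 for the genotype on CT. The short-chain members Col8a1, Col8a2 and Col10a1 lay between 5.52 and 6.39, and Col26a1 and Col28a1 between 5.76 and 6.76, again with no ratio past 1.5-fold.

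In the comparisons with WT-CT, the sign of the median ratio differed between members at higher and lower levels, which was not the case in the comparisons with cKO-HFD. Of the 13 collagens with a mean level of at least 7, 11 were lowest on WT-CT (84.6%), against 41.9% of all genes at that level. The others, Col5a1 and Col5a3, were lowest on cKO-CT. Of the 31 collagens below that level, 21 were lowest on cKO-CT (67.7%), against 33.5% of all genes below it, and 17 were highest on cKO-HFD (54.8%, against 31.6%). The olfactory receptor background was also lowest on cKO-CT (5.28) and highest on cKO-HFD (5.50). Its part in these values was not tested. For the diet in WT, the median log2 ratio was 0.54 over the 13 and −0.06 over the 31, where all genes of those levels had 0.03 and −0.02. For the genotype on CT it was 0.29 and −0.18, where all genes had 0.11 and −0.05. For the diet in cKO it was 0.26 and 0.29, where all genes had −0.08 and 0.06. For the genotype on HFD it was 0.02 and 0.15, where all genes had 0.02 and 0.03. The 20 collagens with levels of 6 to 7 had medians of −0.23 for the genotype on CT and 0.33 for the diet in cKO, while the 3886 genes of that range had 0.04 and −0.05.

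**Figure D2:**
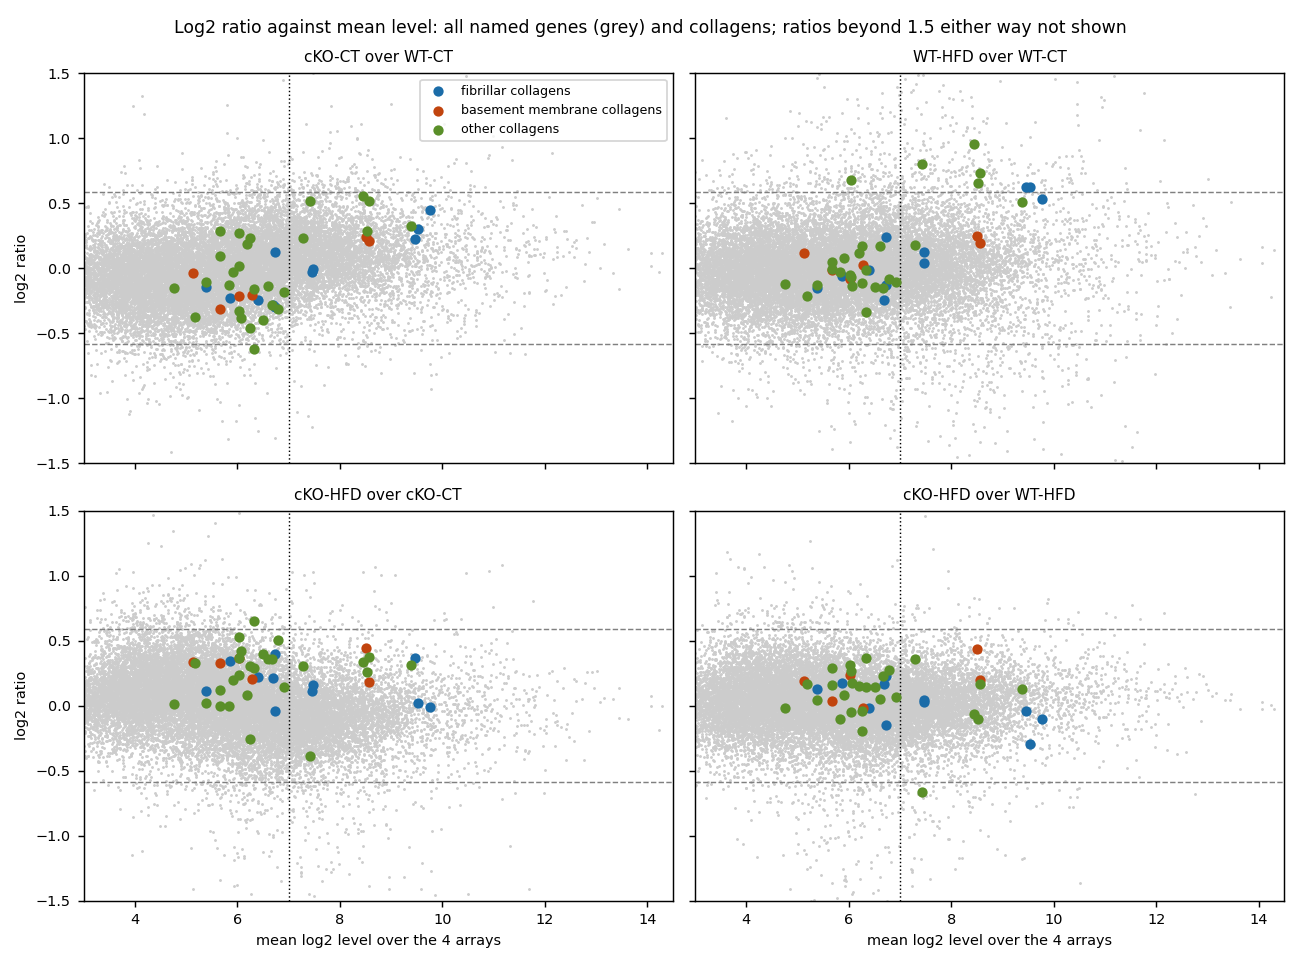
Log2 ratio (vertical axis) against the mean log2 level over the 4 arrays (horizontal axis) for all named genes (grey) and for the collagens by class (colours), with 1 panel a comparison, dashed lines at 1.5-fold and a dotted line at a level of 7. Right of the dotted line all 13 collagens lie above 0 in WT-HFD over WT-CT, and left of it 24 of 31 lie below 0 in cKO-CT over WT-CT.

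The 3 classes were compared by their medians, first over all members. For the diet in cKO, the median log2 ratio was 0.16 for the fibrillar, 0.33 for the basement membrane and 0.30 for the other collagens, beside 0.017 for all genes. For the diet in WT it was 0.04, 0.07 and −0.01, beside −0.004 for all genes. For the genotype on HFD it was 0.02, 0.19 and 0.14, beside 0.027, and for the genotype on CT it was −0.03, −0.12 and −0.10, beside −0.005. Most of these members were at low levels, and the medians changed when only those with a mean level of at least 7 were kept. The 5 fibrillar, 2 basement membrane and 6 other collagens of that level had medians of 0.11, 0.31 and 0.31 for the diet in cKO and of 0.54, 0.22 and 0.69 for the diet in WT. For the genotype they had −0.04, 0.32 and 0.03 on HFD and 0.22, 0.23 and 0.42 on CT.

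**Figure D3:**
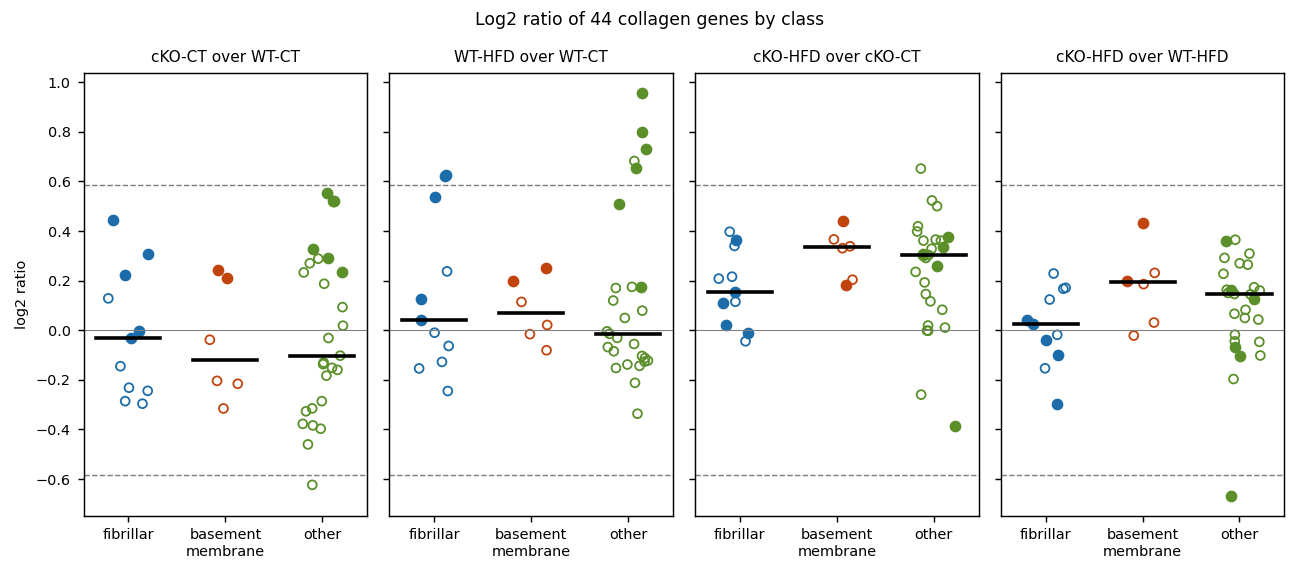
Log2 ratio (vertical axis) of each of the 44 collagens by class (horizontal axis), with 1 panel a comparison. Filled points have a mean level of at least 7 and open points a lower one, black bars are class medians over all members, and dashed lines mark 1.5-fold, above which 7 collagens lie in WT-HFD over WT-CT.

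Chains that share a trimer were set beside each other. The log2 ratios of Col1a1 and Col1a2 differed by 0.03 to 0.20 over the 4 comparisons, those of Col4a1 and Col4a2 by 0.03 to 0.26 and those of Col5a1 and Col5a2 by 0.16 to 0.20. Between the 3 main type VI chains the difference was at most 0.30, and between Col8a1 and Col8a2 it was at most 0.45, with ratios of −0.26 and 0.19 for the diet in cKO. The ratios of Col5a1 and Col5a2 had opposite signs for the diet in cKO and for the genotype on both diets. The spread between repeat arrays is not known, so these gaps cannot be set against it, and chains of different trimers were not compared in this way.

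The genotype ratio on HFD minus that on CT shows how far the genotypes differed in another way on each diet. Its median was 0.16 over the 44 collagens and 0.02 over all genes. Over the 13 collagens with a mean level of at least 7 it was −0.26, with 9 of 13 below 0 (69.2%), where all genes of that level had −0.095 and 64.8% of them were below 0, a share near that of the collagens. Past 1.5-fold, 3 collagens were lower, namely Col14a1 (−1.19), Col6a3 (−0.62) and Col1a2 (−0.60), where 5.12% of all genes were lower. Another 3 were higher, namely Col13a1 (0.99), Col28a1 (0.59) and Col9a3, which lay just at the limit, where 5.56% of all genes were higher. Each of these differences rests on 4 single arrays and was not tested. Both counts of collagens past 1.5-fold were of the size that the share of all genes would give.

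Genes that modify, cut and crosslink collagen mostly had levels above those of WT-CT in WT-HFD. Of 33 listed, 30 were measured, and their median log2 ratio was 0.08 for the diet in cKO, 0.30 for the diet in WT, 0.04 for the genotype on HFD and 0.30 for the genotype on CT. For the genotype on CT, 23 of 30 were above 0 (76.7%), beside 49.2% of all genes. Of those with a mean level of at least 7, 69.6% were above 0, a share near that of the list. For the diet in WT, 28 of 30 were above 0 (93.3%), beside 49.2% and 55.7%. Of these, 4 were higher by at least 1.5-fold, where 3.16% of all genes were, and 0 were lower by that size, where 2.67% were. Pcolce, an enhancer of procollagen cleavage, had levels of 9.18 in cKO-HFD, 9.47 in WT-HFD, 9.21 in cKO-CT and 8.63 in WT-CT. Lox, which crosslinks fibrillar collagen, had levels of 9.64 in cKO-HFD, 9.34 in WT-HFD, 9.16 in cKO-CT and 8.72 in WT-CT. Both were lowest on WT-CT, as was Pxdn, the peroxidase that crosslinks type IV collagen, with a diet ratio of 0.73 in WT. Pcolce2 had a diet ratio of 0.59 in WT. For the genotype on CT, 1 gene passed, the prolyl hydroxylase P3h2 at 0.69, where 1.64% of all genes were higher by that size. None of the list passed in the comparisons that involve cKO-HFD.

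The 10 small proteoglycans that bind fibrils had medians of 0.27 for the diet in cKO, 0.37 for the diet in WT, 0.006 for the genotype on HFD and 0.21 for the genotype on CT. Asporin (Aspn) had levels of 8.19 in cKO-HFD, 8.20 in WT-HFD, 7.92 in cKO-CT and 6.95 in WT-CT, and Prelp had levels of 12.54, 12.38, 12.28 and 11.39 in the same order. Both passed 1.5-fold for the diet in WT and for the genotype on CT, with WT-CT low, where 3.16% and 1.64% of all genes were higher by that size. Osteoglycin (Ogn) had levels of 8.23 in cKO-HFD, 9.34 in WT-HFD, 9.14 in cKO-CT and 8.86 in WT-CT. It was low on cKO-HFD, with log2 ratios of −1.11 for the genotype on HFD and −0.91 for the diet in cKO. Podn passed for the diet in cKO at −0.64, and Omd, also past 1.5-fold in both of these comparisons, was below the background on every array. Of all genes, 2.11% were lower by 1.5-fold for the genotype on HFD and 2.17% for the diet in cKO.

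Of the basement membrane partners, 14 of 15 were measured, with medians of 0.02 for the diet in cKO, 0.16 for the diet in WT, 0.02 for the genotype on HFD and 0.22 for the genotype on CT. Hspg2, which encodes perlecan, had levels of 10.84 in cKO-HFD, 10.34 in WT-HFD, 10.29 in cKO-CT and 9.48 in WT-CT. It passed 1.5-fold for the diet in WT (0.86) and the genotype on CT (0.81), and the laminin chain Lama2 passed for the diet in WT (0.71). Of the collagen receptors, 9 of 10 were measured, with medians of 0.002, 0.30, 0.08 and 0.43 in the same order. Mrc2, a receptor that takes up collagen fragments, had levels of 8.47 in cKO-HFD, 7.96 in WT-HFD, 7.81 in cKO-CT and 6.88 in WT-CT. Its diet ratio was 0.66 in cKO and 1.08 in WT, and its genotype ratio was 0.50 on HFD and 0.92 on CT. The integrin chain Itga11, a receptor of fibrillar collagen, passed for the diet in WT at 0.84. Beside these partners and receptors, the share of all genes higher by 1.5-fold was 1.82% for the diet in cKO. It was 3.16% for the diet in WT and 1.64% for the genotype on CT.

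**Figure D4:**
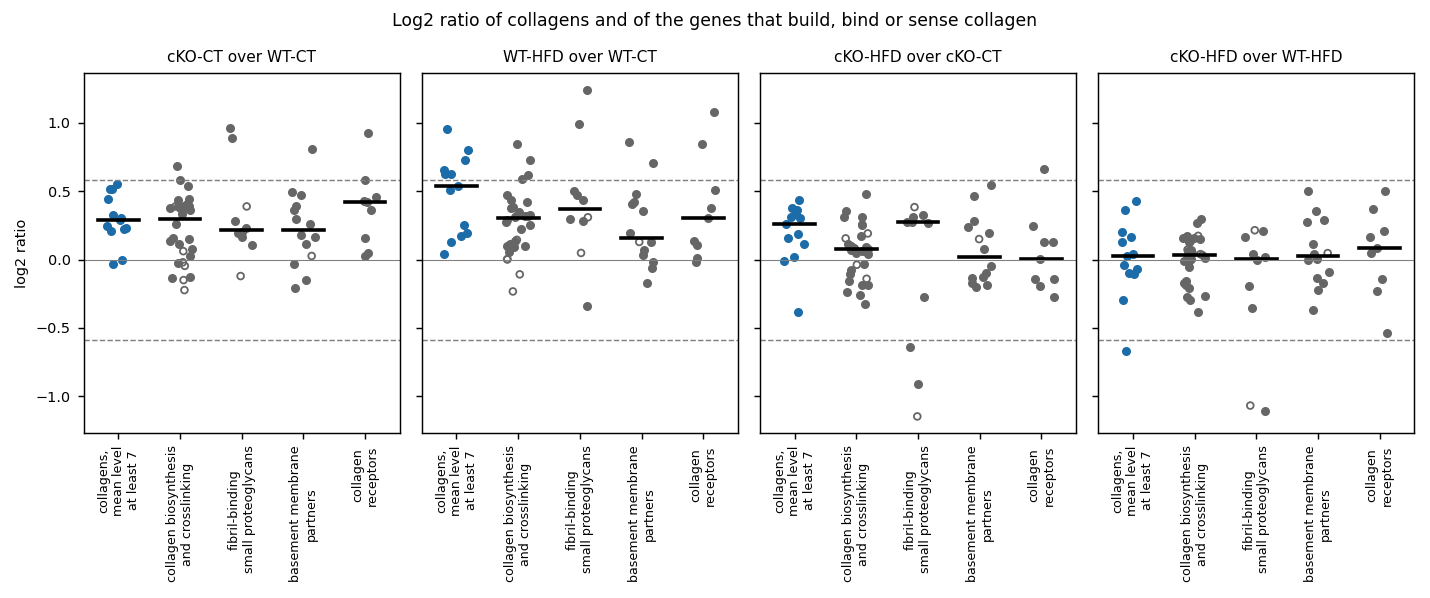
Log2 ratio (vertical axis) of the 13 collagens with a mean level of at least 7 (blue) and of the genes of 4 lists that build, bind or sense collagen (grey), with 1 panel a comparison, black bars for medians and dashed lines at 1.5-fold. Open points did not exceed the olfactory receptor background on any array. For the diet in WT the medians run between 0.16 and 0.54.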

How the data were processed

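RNA from subcutaneous fat was hybridised to Affymetrix MoGene 1.0 ST arrays, 1 pooled sample for each of 4 groups. The authors deposited a log2 level for each probe set, made by RMA in Affymetrix software (RMA-Sketch in the study's methods, Expression Console and RMA in the submitters' processing notes), and the detection filter was not applied to the deposited table. Genes were named from the platform annotation: of 35556 probe sets, 21789 had 1 gene symbol, 1621 several and 12146 none. Where a gene had more than 1 uniquely named probe set, they were averaged (Col6a5 and Col6a6 had 2 each). Log2 ratios were computed with Python 3.11.15, numpy 2.4.6 and pandas 2.3.3, and cyclic loess with limma 3.58.1 in R 4.3.3. A gene was called at 1.5-fold (0.585 on the log2 scale). The level 7 and the 95th percentile of 1027 olfactory receptor genes mark low signal. Arrays give no read depth, and 1 array a group limits the precision. The members and lists were chosen with earlier results of these data known. Collagens named with all levels are those past 1.5-fold and above background, plus Col1a1, Col1a2, Col3a1, Col4a1, Col4a2, Col5a1, Col5a2, Col6a1, Col6a2, Col6a3, Col15a1 and Col18a1. From the other lists, at most 4 past 1.5-fold a list are named, with Napepld and genes that describe a count of 5 or fewer. Alternatives were each gene's brightest probe set, probe sets with several names, cyclic loess, array centring, level filters, 2-fold, and type IV with Col7a1, Col15a1 and Col18a1. The scripts were tested on simulated data. Promoter sequences are from RefSeq.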

Additional observations from a re-analysis of the deposited data

Results flagged for a closer look

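Col14a1 had genotype ratios of opposite sign on the 2 diets, −0.67 in cKO-HFD over WT-HFD and 0.52 in cKO-CT over WT-CT, a difference of −1.19, and so its diet ratio was −0.38 in cKO and 0.80 in WT. Col13a1 had genotype ratios of 0.36 in cKO-HFD over WT-HFD and −0.62 in cKO-CT over WT-CT, a difference of 0.99, and its diet ratio was 0.65 in cKO and −0.34 in WT. They were listed because the 2 effects point opposite ways and at least 1 of them passed 1.5-fold. The share of all genes that meet this rule was not computed. With 1 array a group, neither difference was tested.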

How the results depend on the processing

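No paired analysis was possible because each group has 1 array. Of 510 values recomputed under alternatives, 490 stayed within a tolerance (0.1 on the log2 scale for a median, 1.5 times for a count, and for a gene the spread of the ratios of genes at like levels) and 20 moved. All 300 values of single genes stayed within it, and no called value changed sign. At 2-fold no collagen passed, with counts of 0 in each of the 4 comparisons. Restricted to genes with a mean level of at least 7, the count of collagens past 1.5-fold was 0 in cKO-CT over WT-CT and 0 in cKO-HFD over cKO-CT. In cKO-CT over WT-CT the class medians changed sign, from −0.03, −0.12 and −0.10 to 0.22, 0.23 and 0.42 for fibrillar, basement membrane and other collagens. In WT-HFD over WT-CT they went from 0.04, 0.07 and −0.01 to 0.54, 0.22 and 0.69, so that of other collagens changed sign. In cKO-HFD over WT-HFD they went from 0.19 to 0.32 for basement membrane and from 0.14 to 0.030 for other collagens. The list medians became 0.38 for basement membrane partners in cKO-CT over WT-CT, 0.48 for small proteoglycans and 0.41 for basement membrane partners in WT-HFD over WT-CT, and 0.13 in cKO-HFD over cKO-CT and 0.21 in cKO-HFD over WT-HFD for collagen receptors. The median difference of the genotype ratios became −0.26. Cyclic loess took Col1a2 below 1.5-fold in WT-HFD over WT-CT (6 collagens passed, all of them among the 7). Medians close to 0 changed sign, such as that of collagen receptors in cKO-HFD over cKO-CT (0.002, and −0.05 by cyclic loess). Of the 20 moves, 16 came with the level filter, under which 17 other values stayed within the tolerance, and 4 with the larger fold. Counts at a larger fold can only fall, by construction. With 1 array a group, array-to-array spread is unknown.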
